A study of Mus musculus with 6 samples.

Results

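The respiratory chain was described through 104 genes of the liver of C57BL/6J mice, out of 15092 in the table. They were taken by symbol and comprise the mitochondrially encoded subunits, the nuclear subunits named Nduf, Sdh, Uqcr, Cyc1, Cox4 to Cox8 and Atp5, and the assembly factors that share the Nduf prefix, with names of pseudogenes left out. Of these, 13 are encoded by mitochondrial DNA, 81 are nuclear encoded subunits of the 5 complexes, and 10 are not subunits, namely the Ndufaf assembly factors, Ndufa4l2 and Cox7a2l. Ndufa4 was counted with complex IV, to which its protein belongs despite its name. Polyadenylated RNA was sequenced from 3 libraries titled wild type (WT) and 3 titled knockout of the cryptochrome gene Cry1 (CRY1 KO), all of the same strain. The labels give liver as source and name hepatocytes as its cells. Every title also begins with NC, a prefix that is not interpreted here. Beyond the titles, no treatment is recorded for either group, and neither is age, sex, time of day or the construct of the knockout. The labels do not state whether the replicates were separate animals. Each p-value is therefore set against sample-to-sample spread that may be only technical.

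The chain lies in the inner mitochondrial membrane. Complexes I and II take electrons from NADH and succinate, complexes III and IV pass them on to oxygen, and complex V, the ATP synthase, uses the resulting proton gradient to make ATP. Mitochondrial DNA encodes hydrophobic core subunits of complexes I, III, IV and V, which are transcribed from both strands as long precursors that are cut at the tRNAs between the genes. All subunits of complex II and all other subunits come from the nucleus, so each of the other complexes depends on transcription in both compartments. Hepatocytes are rich in mitochondria, and the clock is known to act on mitochondrial metabolism of the liver.

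Library totals ranged from 79708703 to 91316332 estimated counts. The transcript of Cry1 did not separate the groups, at 6.31 ± 1.32 CPM in WT against 6.19 ± 0.88 CPM for the knockout label (mean ± SD, n = 3; edgeR log2 -0.03, SE 0.19, adjusted p = 0.954). Directions below are those of libraries carrying the CRY1 KO label. CPM are counts scaled to library size with edgeR's TMM factors, and log2 differences are CRY1 KO minus WT. The 9 hepatocyte markers in the table summed to between 87748 and 98076 CPM in every library. Among them 1, the transcription factor gene Hnf4a, was called higher (log2 0.73, SE 0.13, edgeR adjusted p = 0.0389), where 1.06% of all tested genes were. Of the 9, 6 had negative and 3 had positive differences, with a median of -0.08. The 12 Kupffer cell markers summed to 727.4, 467.4 and 288.2 CPM in WT 1, 2 and 3 and to between 267.4 and 273.0 CPM in CRY1 KO, and all 12 had negative differences. The red blood cell markers, 8 of 9 tested, summed to 2979 CPM in WT 1, the other libraries lying between 581.8 and 1025 CPM. The 10 lymphocyte and neutrophil markers summed to between 15.6 and 18.9 CPM in WT and to 7.599 to 9.29 CPM in CRY1 KO, without overlap. Of these 9 had negative differences, and Jchain, of plasma cells, was called lower (log2 -2.45, SE 0.33, edgeR adjusted p = 0.0194), where 0.644% of all tested genes were. Of 10 endothelial markers 8 had positive differences and 4 had groups apart and higher, with 0 called. Over all tested genes 14.6% had groups apart and higher. The median transcript length of the endothelial markers was 3394 bases, and the trend with length given below was not removed. The part of these markers in the results below was not tested. In bulk RNA a lower number of cells of a type and less RNA per cell cannot be told apart.

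Neighbouring frames in mitochondrial DNA overlap. Whether the overlaps bore on how counts were divided between the genes was not tested. The last 43 bases of mt-Atp8 are the first 43 of mt-Atp6, the last 7 of mt-Nd4l are the first 7 of mt-Nd4, and the last 14 of mt-Nd5 are complementary to the last 14 of mt-Nd6, which is read from the other strand. mt-Atp8 and mt-Atp6 are known to be carried on a shared messenger RNA, and so are mt-Nd4l and mt-Nd4. The sequences are from the transcripts of GENCODE M21 (GRCm38), with the shared bases in capitals. They are shown whole for mt-Atp8 and mt-Nd4l, as the first 120 bases for mt-Atp6 and mt-Nd4, and as the last 60 bases for mt-Nd5 and mt-Nd6.
mt-Atp8: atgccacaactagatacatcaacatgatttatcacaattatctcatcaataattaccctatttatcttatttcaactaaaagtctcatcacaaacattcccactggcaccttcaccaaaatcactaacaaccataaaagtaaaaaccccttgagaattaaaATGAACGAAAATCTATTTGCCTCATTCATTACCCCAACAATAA
mt-Atp6: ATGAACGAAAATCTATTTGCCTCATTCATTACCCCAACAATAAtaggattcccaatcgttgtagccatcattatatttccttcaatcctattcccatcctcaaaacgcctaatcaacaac
mt-Nd4l: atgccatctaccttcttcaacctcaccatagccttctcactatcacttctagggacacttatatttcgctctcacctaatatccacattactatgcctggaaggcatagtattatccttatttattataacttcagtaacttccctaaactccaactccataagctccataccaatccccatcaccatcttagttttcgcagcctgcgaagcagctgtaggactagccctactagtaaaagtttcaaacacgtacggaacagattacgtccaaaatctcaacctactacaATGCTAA
mt-Nd4: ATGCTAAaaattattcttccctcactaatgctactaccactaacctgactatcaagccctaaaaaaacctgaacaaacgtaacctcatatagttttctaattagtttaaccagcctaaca
mt-Nd5: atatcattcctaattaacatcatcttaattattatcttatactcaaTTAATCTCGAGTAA
mt-Nd6: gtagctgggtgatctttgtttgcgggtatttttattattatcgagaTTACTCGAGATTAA

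Levels within these pairs were far apart although they share a messenger RNA. Per kilobase of transcript, mt-Nd4l stood at 22502 CPM and mt-Nd4 at 388.2 CPM on average over the 6 libraries, and the ratio of their counts per base lay between 44.3 in WT 3 and 69.4 in CRY1 KO 3. The ratio per base of mt-Atp8 to mt-Atp6 was smaller, between 3.87 in WT 1 and 5.74 in CRY1 KO 2. These ratios describe the values of the table, and which step of the authors' processing divided the counts is not known. Levels of single mitochondrially encoded genes are therefore uncertain. Summed, mt-Atp8 and mt-Atp6 took 0.661%, 0.810% and 1.001% of counts in WT, compared to 0.977%, 1.11% and 1.05% for CRY1 KO, and WT 3 lay inside the range of CRY1 KO. The sum of mt-Nd4l and mt-Nd4 took 0.461%, 0.597% and 0.789% in WT, compared to 0.770%, 0.889% and 0.831% for CRY1 KO. There too WT 3 lay inside the range of CRY1 KO. The counts of mt-Atp8 relative to mt-Atp6 were 1.16, 1.26 and 1.28 in WT, compared to 1.34, 1.72 and 1.58 for CRY1 KO, without overlap between the groups, while the ratio of mt-Nd4l to mt-Nd4 overlapped (9.55 to 14.8 in WT, 12.2 to 14.96 in CRY1 KO). Per kilobase the other members ran from 109.6 CPM for mt-Nd6 to 17875 CPM for mt-Co1. mt-Nd6, which is encoded on the other strand, had 24.1 CPM in CRY1 KO 1 and 33.6 CPM in WT 1, while the other 4 libraries lay between 62.9 and 75.9 CPM.

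All 13 mitochondrially encoded members had positive log2 differences, with a median of 0.31, against -0.02 over all 13816 tested genes. None of the 13 passed the edgeR quasi-likelihood test with adjustment over all genes, where 1.7% of tested genes were called (1.06% higher and 0.644% lower). At an unadjusted p under 0.05 there were 4 higher and 0 lower, where 10.9% of all tested genes were higher and 9.84% lower at that level. In the same 4 genes the CRY1 KO libraries lay above every WT library (30.8% of 13, against 14.6% of all tested genes and 23.9% of other genes at 30 CPM or more). By DESeq2 4 of the 13 passed, against 6.16% of the genes that it gave an adjusted p.

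In the order of complexes, mt-Nd2, a membrane subunit of complex I, stood at 4594, 5981 and 6725 CPM in WT 1, 2 and 3 and at 7912, 10269 and 7887 CPM in CRY1 KO 1, 2 and 3. Every CRY1 KO library lay above every WT library, and mt-Nd2 was 0.59 higher on the log2 scale (SE 0.17, edgeR adjusted p = 0.108). mt-Nd4l, another membrane subunit, stood at 4583, 5531 and 6594 CPM in WT, compared to 7255, 8843 and 7293 CPM for CRY1 KO (log2 0.49, SE 0.16, edgeR adjusted p = 0.136), and its groups did not overlap. The other complex I members overlapped between groups, with log2 differences of 0.33 for mt-Nd5, 0.31 for mt-Nd4, 0.12 for mt-Nd1, 0.10 for mt-Nd3 and 0.07 for mt-Nd6. Without WT 1 the difference was 0.08 for mt-Nd4 and 0.13 for mt-Nd5, and without WT 3 it was 0.68 and 0.65. mt-Nd5 had its highest value in WT 3, at 5794 CPM, where WT 1 had 2918 and WT 2 3726 CPM and the CRY1 KO libraries lay between 4951 and 5643 CPM. mt-Cytb, the cytochrome b of complex III, stood at 8196, 8588 and 10844 CPM in WT, compared to 10697, 13436 and 10767 CPM for CRY1 KO (log2 0.34), with WT 3 inside the range of CRY1 KO.

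The catalytic subunit of complex IV, mt-Co1, had the highest CPM of any member when length is not considered (per kilobase mt-Atp8 and mt-Nd4l were higher), at 21072, 22188 and 25725 CPM in WT, compared to 30774, 34043 and 31898 CPM for CRY1 KO. The groups did not overlap, and the log2 difference was 0.49 (SE 0.12, edgeR adjusted p = 0.0826). mt-Co2 and mt-Co3, the other mitochondrially encoded subunits of complex IV, had 0.14 and 0.05, and in both CRY1 KO 2 was the highest library while the other 5 libraries lay close together (4424 to 4592 CPM for mt-Co2 and 2601 to 2964 CPM for mt-Co3). Whether the 3 subunits differed in the size of their differences was not tested. In complex V, mt-Atp8 stood at 3767, 4501 and 5185 CPM in WT, compared to 5675, 7524 and 5986 CPM for CRY1 KO (log2 0.51, SE 0.16, edgeR adjusted p = 0.124), without overlap, and mt-Atp6 had a log2 difference of 0.19 with overlap. WT 1 was the lowest of the 6 libraries in 9 of the 13 genes, CRY1 KO 2 the highest in 11, and WT 3 the highest of WT in 11.

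**Figure D1:**
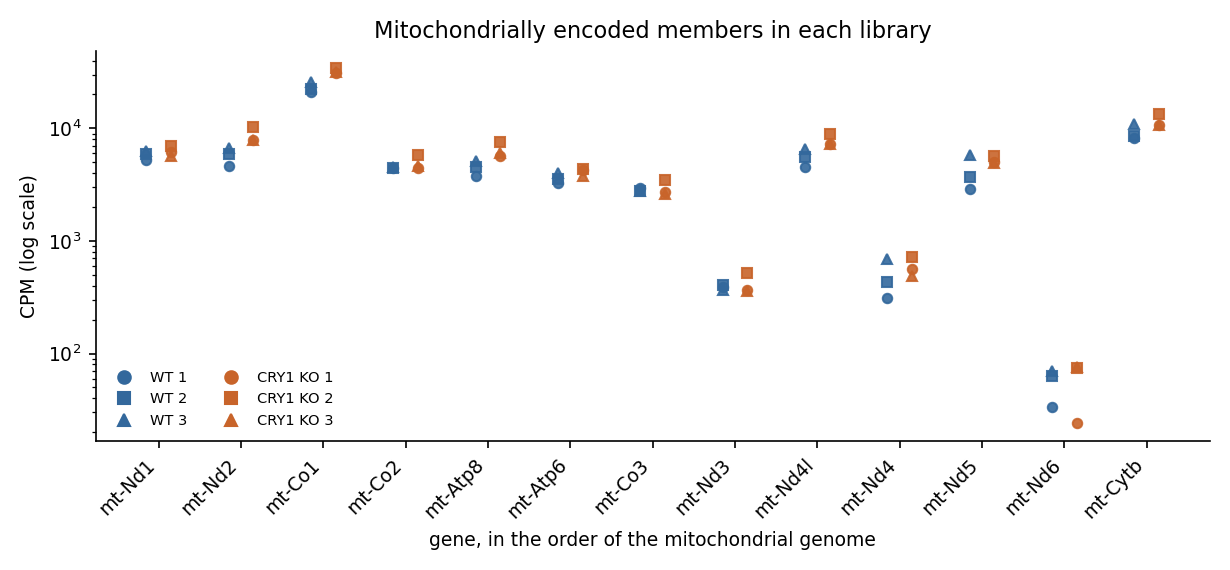
CPM on a log axis for each of the 13 mitochondrially encoded members, in genome order, with 1 point per library (blue WT, orange CRY1 KO, symbol by replicate). mt-Nd2, mt-Co1, mt-Atp8 and mt-Nd4l have all orange points above all blue ones, and mt-Nd3, mt-Nd4 and mt-Nd6 lie far below their neighbours.

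Summed, the 13 genes took 5.82%, 6.82% and 8.62% of the counts of WT 1, 2 and 3, compared to 8.47%, 9.45% and 9.23% of CRY1 KO 1, 2 and 3. WT 3 lay within the range of CRY1 KO. Scaled by library totals alone, 3 of the 4 genes still had groups that did not overlap, mt-Atp8 being the exception. For mt-Nd4l the groups then nearly met, with 632322 of 88541861 counts in WT 3 and 585610 of 81969920 in CRY1 KO 1. The summed Kupffer markers moved the opposite way over the WT libraries, from 727.4 in WT 1 to 288.2 CPM in WT 3, and their part in the mitochondrial values was not tested. Without WT 1, the library that also stood apart in Kupffer and red blood cell markers, the median of the 13 differences was 0.13, and without CRY1 KO 2 it was 0.15. Without WT 3 it was 0.47, and mt-Nd4l (adjusted p = 0.0496), mt-Co1 (0.042) and mt-Nd5 (0.0424) passed the edgeR test, where 3.41% of all genes were called higher.

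Among the nuclear encoded subunits 80 of 81 had enough counts to be tested, Cox4i2 being the exception, and 0 passed the edgeR test over all genes. Without WT 3 Uqcrq (adjusted p = 0.0387), Atp5e (0.0354) and Ndufa2 (0.0416) passed it as lower, where 2.63% of all genes did. At an unadjusted p under 0.05 there were 3 higher and 3 lower (3.75% each), below the 10.9% and 9.84% of all tested genes. The median log2 difference was -0.07, and 56 of 80 (70.0%) had negative differences, against 52.7% of all tested genes. This median was -0.15 without WT 3 and -0.01 without CRY1 KO 3. In 6 subunits (7.5%) every CRY1 KO library was above every WT library and in 3 (3.75%) below, where 14.6% and 12.7% of all tested genes did so. Nuclear subunits were steady between replicates, with a median within-group SD of 0.125 on the log2 CPM scale, against 0.218 for the mitochondrially encoded members and 0.124 for other genes at 30 CPM or more. They took 0.968%, 1.06% and 0.982% of counts in WT against 1.04%, 0.946% and 1.02% in CRY1 KO, with means of 1.003% and 1.001%.

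The ratio of mitochondrially to nuclear encoded counts does not depend on library scaling, but the length trend given below was not removed. The ratio was higher on average in CRY1 KO in each of the 4 complexes with both kinds of subunit. In complex IV it was 17.0, 16.6 and 21.9 in WT, compared to 22.8, 27.4 and 27.0 for CRY1 KO, a log2 difference of 0.48, with no overlap. In complex I it was 6.83, 8.08 and 11.3 in WT, compared to 10.6, 13.2 and 11.6 for CRY1 KO (log2 0.46), with WT 3 above CRY1 KO 1. Complex III had 6.12, 6.01 and 8.999 in WT, compared to 7.17, 10.04 and 8.55 for CRY1 KO (log2 0.30). Complex V had 1.83, 2.11 and 2.81 in WT, compared to 2.52, 3.08 and 2.68 for CRY1 KO (log2 0.31). In complexes I, III and V the libraries of the groups overlapped through WT 3, and no test was made of these sums. Without WT 1 the log2 difference was 0.30 in complex I and 0.17 in complex V, and without CRY1 KO 2 it was 0.18 in complex III. The mitochondrially encoded sum of complex IV was mostly mt-Co1, whose WT mean was 22995 CPM, beside 4474 for mt-Co2 and 2839 for mt-Co3. In the latter 2 genes the groups overlapped. All nuclear subunits of complex IV except Cox7b, at 1001 bases, have transcripts up to 800 bases. Other genes up to that length at 30 CPM or more had a median log2 difference of -0.17. The part of length in the ratios was not tested.

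**Figure D2:**
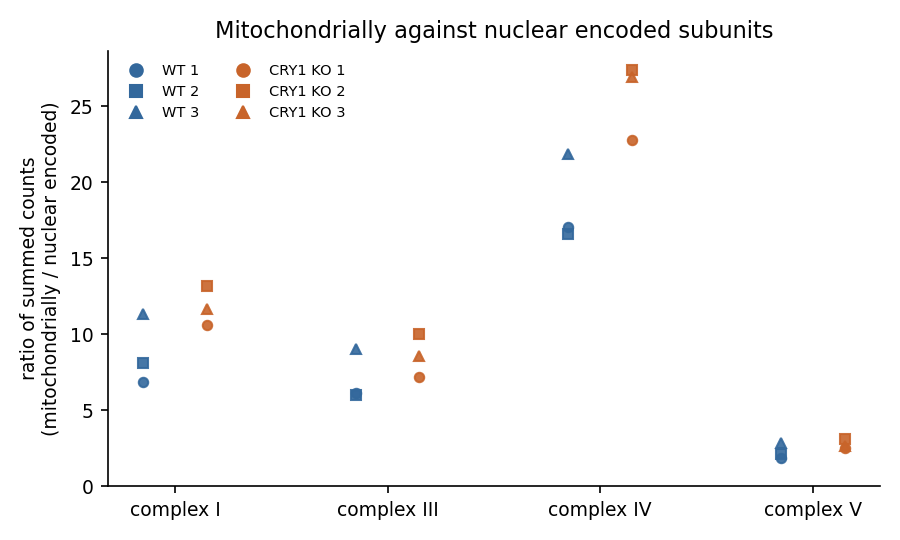
Ratio of summed counts of mitochondrially to nuclear encoded subunits by complex on a linear axis from 0, with 1 point per library (blue WT, orange CRY1 KO). Only in complex IV do all orange points (22.8 to 27.4) lie above all blue ones (16.6 to 21.9).

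Of the 37 nuclear subunits of complex I, 30 had negative differences, with a median of -0.07. The 7 core subunits, which carry the flavin, the iron-sulphur clusters and the quinone site, had a median of -0.03 and ranged from -0.20 for Ndufs8 to 0.11 for Ndufs1. The 30 accessory subunits, which surround the core and support its assembly and stability, had a median of -0.10, and 26 of them were negative. Ndufa10, an accessory subunit of the membrane arm, had 118.6, 114.6 and 120.1 CPM in WT, compared to 125.8, 128.7 and 127.9 CPM for CRY1 KO (log2 0.11, edgeR adjusted p = 0.427), without overlap. At the other end, Ndufa2 had -0.35 (edgeR adjusted p = 0.194) and Ndufb7 -0.31 (edgeR adjusted p = 0.177), and in both WT 3 lay below CRY1 KO 1.

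Complex II, succinate dehydrogenase, is the enzyme shared by the chain and the tricarboxylic acid cycle. Its flavoprotein gene Sdha stood at 358.8, 355.1 and 352.5 CPM in WT, compared to 447.5, 450.3 and 446.1 CPM for CRY1 KO. The groups lay far apart for their spread (355.5 ± 3.19 and 447.9 ± 2.16 CPM, SD, n = 3 each). The log2 difference of 0.33 (SE 0.08) had the smallest adjusted p of any member in edgeR's quasi-likelihood test, 0.0713, which missed the threshold. By DESeq2 the adjusted p of Sdha was 0.00115, where 6.16% of genes were called higher. The iron-sulphur subunit Sdhb had a log2 difference of 0.03, and the membrane anchors Sdhc and Sdhd had -0.07 and 0.09. In these 3 the groups overlapped.

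In complex III the 4 catalytic and core proteins had positive differences and the 5 small subunits negative ones. The split is also one of transcript length, 1363 to 1896 bases against 434 to 535. Differences of other genes ran with length too, as given below. Uqcrc2, a core protein, had 168.9, 184.7 and 177.7 CPM in WT, compared to 209.5, 210.9 and 206.1 CPM for CRY1 KO (log2 0.24, SE 0.08, edgeR adjusted p = 0.154). Uqcrq, a small subunit beside cytochrome b, had 235.1, 232.5 and 201.0 CPM in WT, compared to 178.6, 174.2 and 151.4 CPM for CRY1 KO (log2 -0.41, SE 0.10, edgeR adjusted p = 0.0845). In both genes the groups did not overlap, with the 2 subunits on opposite sides. By DESeq2 the adjusted p of Uqcrq was 0.0125, where 4.6% of genes were called lower, and without WT 3 its edgeR adjusted p was 0.0387, where 2.63% were. Cyc1, the cytochrome c1 that passes electrons to cytochrome c, had 166.8, 220.4 and 153.6 CPM in WT, compared to 339.7, 214.7 and 221.5 CPM for CRY1 KO. Its log2 difference of 0.52 (SE 0.21, edgeR adjusted p = 0.223) became 0.28 without CRY1 KO 1, the library that stood apart.

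Complex IV had 14 nuclear members, among them subunits with tissue forms. The common or liver forms prevailed. Per kilobase Cox4i1 stood at 351.2 CPM in WT against 351.7 CPM in CRY1 KO, while Cox4i2, the form of the lung, had 10, 0 and 0 counts in WT, compared to 0, 5 and 6 for CRY1 KO. Cox7a2, the liver form, had 141.8 CPM per kilobase in WT against 122.1 in CRY1 KO, and Cox7a1, the form of heart and muscle, had 1.28 and 1.50. Cox6b1 had 293.5 and 275.5 CPM per kilobase, and Cox6b2, the testis form, 0.725 and 0.206. Cox6b2 had 22, 37 and 24 counts in WT, compared to 0, 18 and 4 for CRY1 KO, without overlap (log2 -1.80, SE 0.98, edgeR adjusted p = 0.332), a level at which single counts carry little information. Cox6a1 and Cox8a, the liver forms of their subunits, had log2 differences of -0.19 and -0.14 with overlap. Ndufa4 stood at 426.1 CPM per kilobase in WT against 395.8 in CRY1 KO, and its relative Ndufa4l2, known to be induced by hypoxia, at 1.59 and 1.16. The fat and muscle markers, of which 2 of 10 were tested, summed to between 8.14 and 17.9 CPM.

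In complex V the 5 subunits of the catalytic F1 head had a median log2 difference of 0.09, from -0.26 for Atp5e to 0.21 for Atp5b. Atp5b, the catalytic β subunit, had 997.9, 945.0 and 882.7 CPM in WT, compared to 1113, 1076 and 1073 CPM for CRY1 KO (log2 0.21, SE 0.09, edgeR adjusted p = 0.25), without overlap. Its partner Atp5a1, the α subunit, had a log2 difference of 0.12, also without overlap. Atp5d, the δ subunit at the foot of the head, had 190.7, 192.8 and 172.8 CPM in WT, compared to 170.4, 158.3 and 154.5 CPM for CRY1 KO (log2 -0.20, SE 0.09, edgeR adjusted p = 0.242). The 4 proteins of the peripheral stalk had a median of 0.01, and all 5 small membrane subunits had negative differences, with a median of -0.13. Transcripts of the small membrane subunits are at most 747.5 bases long, against 1916 for Atp5b and 2572.5 for Atp5a1. Subunit c of the rotor ring is made from 3 genes whose products share a mature peptide. Atp5g2 and Atp5g3 had log2 differences of -0.00081 and -0.10. Atp5g1 stood at 114.0 and 128.0 CPM in WT 1 and WT 2, at 17.4 CPM in WT 3 and from 95.3 to 101.7 CPM in CRY1 KO. Its log2 difference of 0.18 (SE 0.73, edgeR adjusted p = 0.915) turned to -0.30 without WT 3. The 3 genes together took 0.0309% of counts in WT 3, the lowest library, and the others lay between 0.0353% and 0.0442%.

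**Figure D3:**
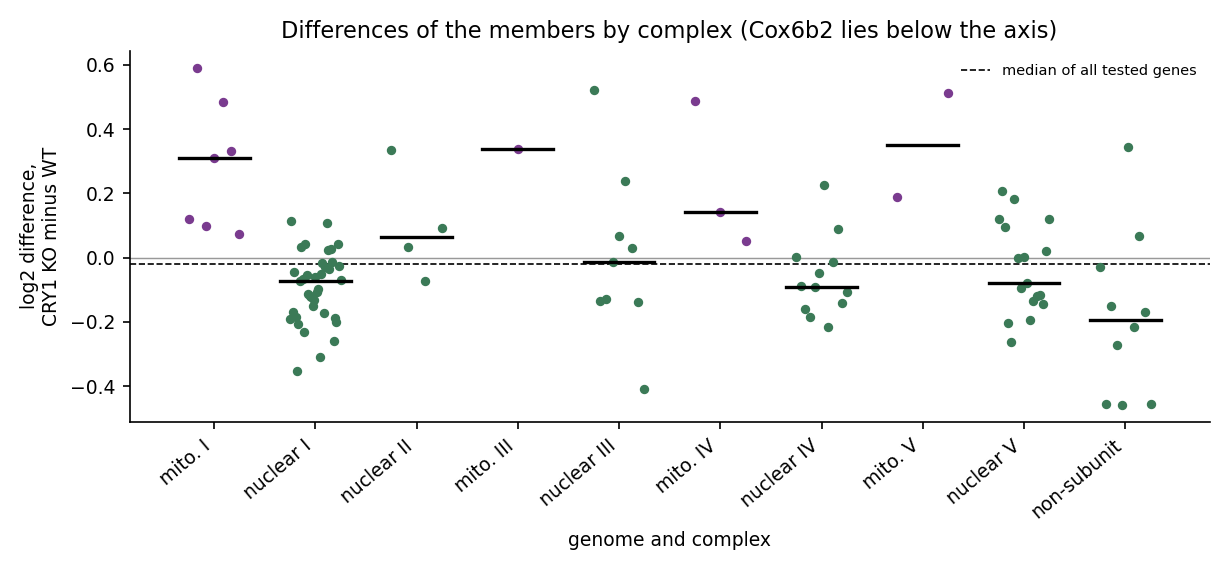
Log2 differences (CRY1 KO minus WT) of single members by genome and complex, with a bar at each class median and a dashed line at the median of all tested genes (-0.02); Cox6b2 (-1.80) is not drawn but counts in its median. Mitochondrially encoded classes (purple) lie above 0, and nuclear complexes I, III, IV and V and the non-subunits (green) have medians below 0.

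**Figure D4:**
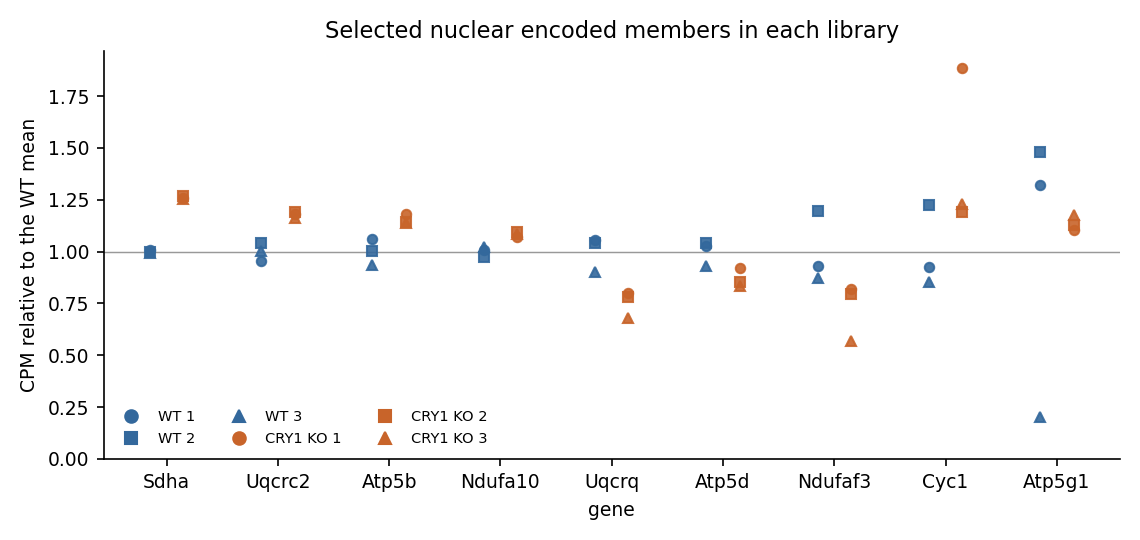
CPM of 9 nuclear encoded members relative to the WT mean of each gene, on a linear axis from 0, with 1 point per library (blue WT, orange CRY1 KO). Sdha has tight groups without overlap, Cyc1 has 1 high CRY1 KO library and Atp5g1 has 1 low WT library.

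Of the 10 non-subunits 8 had negative differences, with a median of -0.19 and 0 called. This median was -0.29 without CRY1 KO 2 and -0.09 without CRY1 KO 3. Ndufaf3, an assembly factor of complex I, had 8.12, 10.5 and 7.62 CPM in WT, compared to 7.16, 6.94 and 4.98 CPM for CRY1 KO (log2 -0.46, SE 0.19, edgeR adjusted p = 0.214), without overlap. Ndufaf4, another assembly factor of complex I, had a log2 difference of 0.34 (edgeR adjusted p = 0.243) with overlap. Cox7a2l, described as a factor for supercomplexes of complexes III and IV, had -0.03. Which form of its protein these mice make was not examined.

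The signs of the nuclear differences followed the length of the transcripts. Over the 48 tested nuclear members with transcripts up to 800 bases the median log2 difference was -0.12 and 42 were negative, over 23 members between 800 and 1500 bases it was -0.05, and over 18 longer ones it was 0.11 and 4 were negative. Spearman's rho between length and difference was 0.44 across 89 members with a length, which share the 6 libraries and are not independent. Other genes of the table showed the same order. At 30 CPM or more the median was -0.17 for 153 genes up to 800 bases, -0.09 for 545 between 800 and 1500 bases and 0.07 for 2716 longer ones, with a rho of 0.37 across 3414 genes. Over all other genes with a length the medians of the same bins were -0.20, -0.13 and 0.01, with a rho of 0.21 across 13596 genes. The 48 short members had median deviations from their mean over libraries of 0.10, 0.18 and -0.11 (log2) in WT 1, 2 and 3, compared to 0.03, -0.02 and -0.19 in CRY1 KO 1, 2 and 3. The 153 other short genes had 0.17, 0.13 and -0.07 in WT, compared to -0.02, -0.05 and -0.19 for CRY1 KO. In both sets WT 3 and CRY1 KO 3 were the lowest libraries. The medians of the short, middle and long members were -0.19, -0.13 and 0.05 without WT 3, -0.06, 0.01 and 0.12 without WT 2, and -0.05, -0.0011 and 0.13 without CRY1 KO 3. Without CRY1 KO 1 the middle group had -0.10. When the trend with length was removed from each library before the edgeR fit, the median of nuclear subunits was 0.09 in place of -0.07, and 0 members passed. The mitochondrially encoded members were not in that fit. Whether the length trend comes from the libraries or the livers was not tested.

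**Figure D5:**
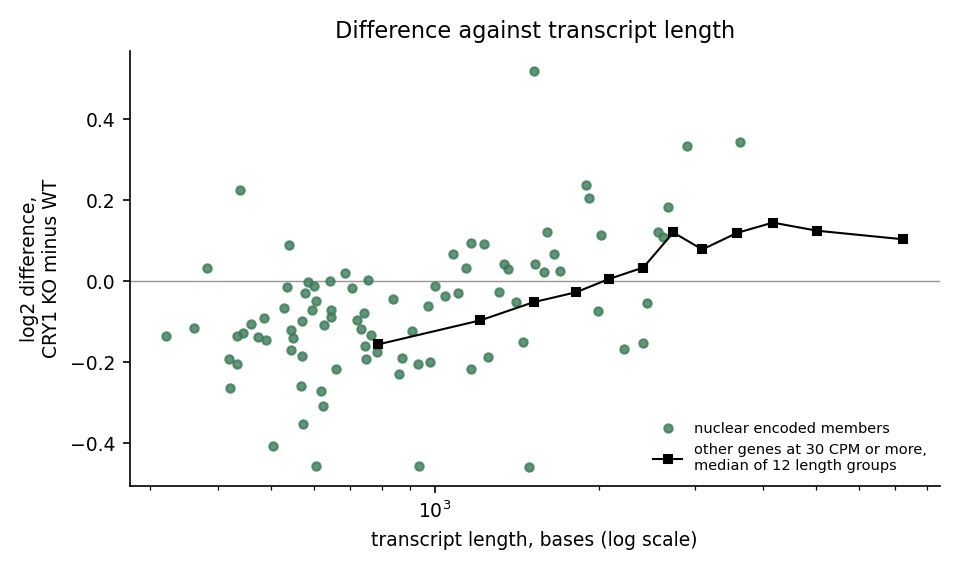
Log2 difference (CRY1 KO minus WT) against transcript length on a log axis, with 1 green point per nuclear encoded member (Cox6b2 not drawn) and black squares for medians of 12 length groups of other genes at 30 CPM or more. Short members lie mostly below 0 and long ones above, as do the medians of the other genes.

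The promoters of the nuclear members were searched for 5 motifs, and each was absent from most of them. RefSeq promoters of GRCm38.p6, from 250 bases before to 50 after each start, matched 75 of 91 nuclear encoded members by symbol, in 80 windows. The full palindromic site of the factor NRF1 was in 8.75% of these windows and in 0.971% of all 32851. Its core GCATGCGC, read on both strands and contained in the full site, was in 12 of the 80 windows and in 2.71% of all. The site of YY1 was in 7.5% and 0.852%, and the ETS site CCGGAAGT in 6.25% and 3.89%, both searched on either strand. The E-box CACGTG, bound by CLOCK and BMAL1, was in 8.75% of member windows and in 7.15% of all. The 12 genes with the NRF1 core had a median log2 difference of -0.12 and the 63 without it -0.10, and the 6 genes with an E-box had -0.01 and the 69 without it -0.11. These are matches of letters and not measured sites. An NRF1 match is shown for Cox6a1 and an E-box match for Atp5g1, the gene that stood apart in WT 3, with the match in capitals, at chr5:115348909-115349208 (minus strand) and chr11:96075582-96075881 (minus strand) of GRCm38.p6.
Cox6a1: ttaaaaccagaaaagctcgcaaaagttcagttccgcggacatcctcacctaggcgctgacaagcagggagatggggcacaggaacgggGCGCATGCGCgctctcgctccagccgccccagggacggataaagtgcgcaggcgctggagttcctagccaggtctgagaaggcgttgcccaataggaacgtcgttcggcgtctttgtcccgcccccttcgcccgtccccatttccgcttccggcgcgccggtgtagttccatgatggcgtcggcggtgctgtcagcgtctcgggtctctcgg
Atp5g1: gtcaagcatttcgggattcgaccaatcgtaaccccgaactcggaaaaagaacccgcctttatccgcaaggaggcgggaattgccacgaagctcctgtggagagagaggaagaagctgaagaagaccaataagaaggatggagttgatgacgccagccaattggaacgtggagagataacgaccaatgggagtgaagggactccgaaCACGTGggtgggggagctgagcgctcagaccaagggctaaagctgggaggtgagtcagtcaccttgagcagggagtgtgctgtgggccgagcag

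Around the chain, 2 genes of mitochondrial transcription passed the edgeR test, where 1.06% of all tested genes were called higher and 0.644% lower. Tfb2m, the factor with which the mitochondrial polymerase starts transcription, rose from 21.01, 20.96 and 20.4 CPM (WT) to 27.7, 30.3 and 27.6 CPM in CRY1 KO (log2 0.46, SE 0.09, edgeR adjusted p = 0.0424). Mterf2, of the mitochondrial termination factor family, fell from 2.35, 2.40 and 2.29 CPM to 1.19, 0.910 and 0.927 CPM (log2 -1.22, SE 0.22, edgeR adjusted p = 0.0407). In both the groups did not overlap, and the other 14 of 16 tested genes of transcription and replication did not pass. Both calls were lost without WT 2 and without each of the CRY1 KO libraries in turn, where the edgeR adjusted p ran from 0.11 to 0.177 for Tfb2m and from 0.0928 to 0.172 for Mterf2. With the replicate block the adjusted p was 0.0899 for both. Tfb2m also missed the threshold with upper quartile scaling (0.0532) and limma-voom (0.0508), and without scaling it had 0.111 and Mterf2 0.0596. Tfam, which packages mitochondrial DNA and activates its transcription, had 0.13 (edgeR adjusted p = 0.39), and the polymerase gene Polrmt had 0.02. Of 19 genes of RNA processing and stability 0 passed. Lrpprc and Slirp, whose proteins together stabilise mitochondrial messenger RNAs, had 0.18 and -0.40 (edgeR adjusted p = 0.264 and 0.285).

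Of 11 regulators of mitochondrial biogenesis 0 passed and 9 had positive differences, with a median of 0.34. Their median transcript length was 3594.5 bases. Other genes over 1500 bases had a median of 0.01, and those of them at 30 CPM or more had 0.07. The part of length in the differences of the regulators was not tested. Ppargc1a, a coactivator of nuclear genes for mitochondria, stood at 11.5, 4.94 and 6.50 CPM in WT, compared to 11.5, 11.3 and 13.7 CPM for CRY1 KO (log2 0.67, edgeR adjusted p = 0.253), with WT 1 inside the range of CRY1 KO. Nrf1 had -0.05 and Esrra, an orphan nuclear receptor that acts with Ppargc1a, had 0.05. Of the 11 regulators 3 had groups apart and higher and 0 apart and lower, where 14.6% and 12.7% of all tested genes did. In the mitochondrial ribosome 0 of 49 tested genes of the large subunit and 0 of 29 of the small subunit passed, and 44 and 27 of them had negative differences, with medians of -0.15 and -0.19. Their median transcript lengths were 1230 and 1064 bases. Other genes between 800 and 1500 bases had a median of -0.13, and 18.2% of them had groups apart and lower. In the large subunit 16 genes had groups apart and lower and 1 apart and higher, and in the small subunit 8 and 1. The part of length in these differences was not tested. Of 44 assembly factors outside the naming rule 0 passed, with a median of -0.08. The 18 genes of electron carriers and coenzyme Q synthesis had a median of 0.01 and the 14 of the tricarboxylic acid cycle 0.09, with 0 passing in either list. Groups were apart and higher in 1 of the 18 and 6 of the 14, and apart and lower in 0 of either. Apart and higher were 14.6% of all tested genes and 28.5% of other genes over 1500 bases at 30 CPM or more.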

How the data were processed

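The authors deposited 1 table of whole numbers, taken here as estimated counts per gene because StringTie is named and 1 unit is not 1 fragment (125 genes had the value 3 in WT 1 and 22 the value 1). The submitters' processing notes name GRCm39 as build, StringTie 2.1.7, HISAT2 2.2.1, limma 3.42.2 and Trim Galore 0.6.7. Settings and annotation, and whether strand was used in counting, are not given in those notes. All 6 columns were matched to samples by title.

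All 15092 genes were fitted together. Of these 13816, and 103 of the 104 members, passed edgeR 4.0.16's filterByExpr (minimum count 10, minimum total 15). After TMM scaling the groups were compared by edgeR's quasi-likelihood test at 0.05 after Benjamini-Hochberg adjustment across the 13816 genes. The fit was tested on simulated data. DESeq2 1.42.0, limma-voom (limma 3.58.1), other scalings, no filter, a replicate block and leaving out each library were alternatives. A length-trend offset (lowess span 0.3) was added after seeing the data. Transcript lengths are medians over basic coding transcripts of GENCODE M21 (GRCm38), used for length only.

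The members, lists and tests were chosen with earlier results of these data known. The naming rule took the mitochondrially encoded and Sdh members, called genes, tissue forms, 7 regulators, and in each nuclear class the largest difference of each sign with groups apart. Cyc1, Atp5g1, Atp5a1, Atp5e, Ndufa2, Ndufb7, Ndufs1, Ndufs8, Ndufaf4, Cox7a2l, Hnf4a and Jchain were named after their values were seen. Nuclear copies of mitochondrial genes and mitochondrial ribosomal RNAs were not analysed here.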

Additional observations from a re-analysis of the deposited data

How the results depend on the processing

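No member passed the edgeR test under the other scalings, without a filter, with limma-voom or with the length-trend offset. DESeq2 called 4 of 13 mitochondrially encoded members and 2 of 80 nuclear encoded subunits, where it called 6.16% of genes higher and 4.6% lower. Leaving out each library gave 0 to 3 called in each of these classes, 3 in each without WT 3. The length-trend offset, chosen after seeing the data, put the nuclear subunit median at 0.086 and Polrmt at -0.027. Upper quartile scaling gave Polrmt -0.014 and Sdhb -0.0047, and limma-voom gave mt-Nd6 -0.035. With a library left out, log2 differences ranged from -0.30 to 0.58 for Atp5g1, -0.037 to 0.22 for Esrra, -0.13 to 0.11 for Nrf1, -0.024 to 0.086 for Polrmt, -0.045 to 0.081 for Sdhb, -0.093 to 0.14 for mt-Co3, -0.094 to 0.20 for mt-Nd3 and -0.19 to 0.45 for mt-Nd6. The median of the mitochondrially encoded members stayed positive, from 0.13 to 0.47. Over all genes 235 were called, against 1284 by DESeq2, 169 by limma-voom and 113 without scaling. With a library left out the count was 17 (WT 2), 20 (CRY1 KO 2), 30 (CRY1 KO 3), 40 (CRY1 KO 1), 565 (WT 1) and 844 (WT 3). The cause of these changes was not tested.

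Deviations from the group means correlated between same-numbered libraries at 0.0102, 0.0238 and 0.0464 over 500 genes, for replicates 1, 2 and 3. The highest correlations with another number were 0.0611, 0.0348 and 0.0390. Whether same-numbered libraries shared a batch was not tested. With the replicate block 0 members passed, 94 of all genes did, the median of the mitochondrially encoded members was 0.34 and mt-Nd6 had -0.033.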
